A study of Mus musculus with 4 samples.

Results

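In lists of chromatin loops of the mouse uterus, some 25 kb stretches of the genome took part in many loops. Such stretches, called hubs here, were selected on the number of loops: each loop anchor of a deposited list was placed in the 25 kb window that holds its midpoint, and a window used by 5 or more loops of that list was a hub. Of the 26434 windows used by a loop in any of the 4 lists, 1366 were a hub in at least 1 list and 65 were a hub in all 4. The loop numbers that chose the hubs are given below as a description, with no test. The number of hubs that evenly spread anchors would give was not computed.

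Hi-C, a method that ligates and sequences pairs of DNA fragments close together in the nucleus, was done on frozen uteri of adult C57BL/6J females, older than 10 weeks, that had been ovariectomised and left for 10 to 14 days so that their own ovarian hormones would clear. The groups were 1 wild-type library taken 1 h after a subcutaneous dose of 1 mg of progesterone, given in 100 ul of sesame oil (replicate 2), 1 library of uterus without estrogen receptor alpha (ERα; genotype label Ex3aERKO) 1 h after 100 ul of saline into the abdominal cavity (replicate 1), and 2 wild-type libraries 1 h after the same saline injection (vehicle 2 and vehicle 3, numbered as in the labels). Progesterone therefore differed from vehicle in carrier and route as well. The sources used here do not say whether animals were pooled for a library. Loop positions carry no expression, so the labelled tissue was not checked against marker genes. The lists held 11752 loops after progesterone, 21829 in the knockout, 16387 in vehicle 2 and 9385 in vehicle 3. Sequencing depth is unknown, and a loop missing from a list was not called, which does not show that it was absent.

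Loops in Hi-C maps are pairs of segments that meet more often than their surroundings. Many are held by cohesin, a ring complex that extrudes DNA until it stops at CTCF bound in facing orientation, and others join promoters with distant enhancers or with each other. A hub collects contacts from a whole tissue, so its partners need not meet it in the same cell or at the same time. In uterus, estrogen and progesterone act through nuclear receptors that often bind far from the genes they regulate, which makes long-range contacts of hormone-responsive genes a usual object of study.

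The promoters of 4 genes whose hubs recurred in all 4 lists are shown first, as examples. Their start sites lay inside a 5 kb anchor, the finest anchor size in the lists, in every library, as did those of 18 genes in all. The sequences run from 250 bases before the start site to 50 after it, 5′ to 3′ along the gene, and come from RefSeq for GRCm38.p6. Capitals mark the GC box GGGCGG and the TATA box TATAAA, searched on both strands, so that a GC box on the opposite strand reads CCGCCC. All 4 promoters shown hold a GC box, but others of the 18, such as those of Fat4 and Igfbp3, hold none. Jun (chr4:95052173-95052472, minus strand) encodes an AP-1 subunit, and Klf6 (chr13:5861239-5861538, plus strand) a zinc finger transcription factor. Adamts1 (chr16:85803064-85803363, minus strand) encodes a secreted metalloproteinase that cleaves proteoglycans, and H4c4 (chr13:23581318-23581617, plus strand) the core histone H4.
Jun: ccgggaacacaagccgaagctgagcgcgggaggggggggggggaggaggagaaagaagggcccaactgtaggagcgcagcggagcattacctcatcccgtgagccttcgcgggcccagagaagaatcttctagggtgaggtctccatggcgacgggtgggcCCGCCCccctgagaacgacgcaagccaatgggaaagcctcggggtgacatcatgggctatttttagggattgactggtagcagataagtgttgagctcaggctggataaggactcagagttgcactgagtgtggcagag
Klf6: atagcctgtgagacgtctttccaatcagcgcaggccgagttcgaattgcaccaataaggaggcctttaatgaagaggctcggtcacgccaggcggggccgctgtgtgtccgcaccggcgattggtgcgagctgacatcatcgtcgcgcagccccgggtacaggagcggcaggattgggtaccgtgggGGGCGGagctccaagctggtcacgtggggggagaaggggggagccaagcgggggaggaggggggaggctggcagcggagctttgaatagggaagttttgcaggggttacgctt
Adamts1: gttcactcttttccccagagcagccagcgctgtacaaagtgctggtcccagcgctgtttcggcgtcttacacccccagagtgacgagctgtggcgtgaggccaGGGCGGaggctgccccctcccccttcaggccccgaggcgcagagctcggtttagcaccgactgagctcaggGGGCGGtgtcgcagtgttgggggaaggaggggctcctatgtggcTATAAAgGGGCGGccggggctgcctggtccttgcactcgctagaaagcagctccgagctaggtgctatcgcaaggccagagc
H4c4: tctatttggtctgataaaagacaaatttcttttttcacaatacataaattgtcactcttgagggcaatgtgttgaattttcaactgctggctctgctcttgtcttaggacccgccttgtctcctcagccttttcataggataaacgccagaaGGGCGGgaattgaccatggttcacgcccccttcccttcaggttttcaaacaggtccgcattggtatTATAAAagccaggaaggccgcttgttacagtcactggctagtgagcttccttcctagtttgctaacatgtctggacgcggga

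The Jun start site was inside the 5 kb anchor of 6 loops after progesterone, 9 in the knockout, 9 in vehicle 2 and 3 in vehicle 3. The Klf6 start site carried 5 such loops after progesterone, 9 in the knockout, 5 in vehicle 2 and 2 in vehicle 3. Each of these start sites was thus an end of at least 2 loops in every library. The Adamts1 start carried 1, 3, 2 and 1 in the same order of libraries, and the H4c4 start 1 in each.

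RefSeq promoters were found for 41 genes in the 65 recurring hubs (43 promoters), and 18 of them lay in a 5 kb anchor in all 4 lists. The GC box was present in 48.8% of the 43 promoters and in 46.2% of all 21262 promoters of that length. The TATA box was present in 25.6%, or 11 promoters, against 12.6% of all promoters. Most of the 11 were histone genes of 1 cluster on chromosome 13 (H2ac12, H2bc12, H2bc3, H3c10, H3c4, H4c4 and H4c9), and H2ac12 and H2bc12 lie head to head, so that their promoters share sequence. Over the 712 promoters in knockout hubs the TATA box was less frequent than among all (9.13%) and the GC box more frequent (62.8%). The AP-1 motif TGANTCA was present in 6.98% against 6.99%. A CTCF core motif was in none of the 43 promoters and in 0.560% of all, and an estrogen response element (GGTCA and TGACC, 3 bases apart) was in none and in 0.0517%. None of these motifs contains another. These are letter matches within 300 bases and say nothing about the rest of each 25 kb window.

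The hub at Hoxa9, Hoxa10 and Hoxa11, homeobox genes that pattern the Müllerian duct, also holds the gene of miR-196b, a microRNA of the Hox clusters (chr6:52230129-52230150, minus strand). Its mature sequence from RefSeq is shown with the seed, bases 2 to 8, in capitals.
miR-196b-5p: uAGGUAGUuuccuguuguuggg

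The number of hubs followed the length of the loop list. There were 223 hubs in the progesterone library, 1183 in the knockout, 569 in vehicle 2 and 100 in vehicle 3. Per 10000 loops these were 190, 542, 347 and 107 hubs. If each longer list is cut at random to the 9385 loops of vehicle 3, the number of hubs expected by exact calculation is 113.6 for progesterone, 100.1 for the knockout and 107.2 for vehicle 2, against the 100 observed in vehicle 3. At equal length the 4 lists therefore held similar numbers of hubs.

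**Figure D1:**
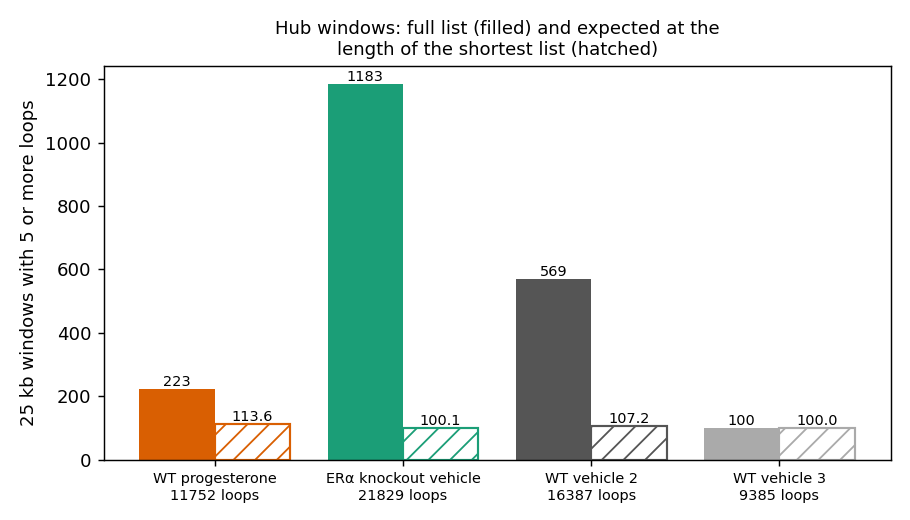
Number of 25 kb windows with 5 or more loops in each library (vertical axis, windows), from the full list (filled bars) and as calculated for the list cut to the length of the shortest list (hatched bars); list lengths stand under the library names. The filled bars run between 100 and 1183 and the hatched bars between 100 and 113.6.

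The busiest window took part in 11 loops after progesterone, 19 in the knockout, 14 in vehicle 2 and 8 in vehicle 3. Just inside the threshold, 130, 612, 319 and 65 windows had exactly 5 loops in these lists, and just outside it 433, 1420, 851 and 252 windows had exactly 4. Loops with an anchor in a hub made up 10.1% of the progesterone list (1187 loops), 28.2% of the knockout list (6149), 18.3% of vehicle 2 (2993) and 5.65% of vehicle 3 (530). Loops that joined a hub to another hub numbered 97 after progesterone, 1014 in the knockout, 360 in vehicle 2 and 25 in vehicle 3.

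Hub loops were long. Their median length was 360 kb after progesterone, 240 kb in the knockout, 330 kb in vehicle 2 and 390 kb in vehicle 3, against 180, 130, 160 and 190 kb for the other loops of the same lists. Loops over 2 Mb made up 1.68%, 2.34%, 1.30% and 1.51% of hub loops and 1.06%, 0.982%, 1.08% and 0.678% of the others. The order held in each of the 4 libraries. Loop length was not part of the rule that chose the hubs, but it went with loop number. Counted per window, the median after progesterone was 150 kb with 1 loop, 215 kb with 2 to 4 and 375 kb in hubs, and it rose likewise in the other lists. How far the rule itself favours long loops was not tested.

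Hubs of a short list were mostly found again in a longer one. Of the 223 progesterone hubs, 87.0% (95% exact interval 81.9 to 91.1) were hubs in the knockout, 78.5% in vehicle 2 and 31.8% in vehicle 3. Of the 100 hubs of vehicle 3, 71.0% were hubs after progesterone, 88.0% in the knockout and 89.0% in vehicle 2. In the other direction, 16.4% of the 1183 knockout hubs were hubs after progesterone, 34.7% in vehicle 2 and 7.44% in vehicle 3. Each progesterone hub and each vehicle 3 hub still had at least 1 loop in each of the other lists. These intervals cover counting error only, and windows next to each other are not independent.

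In all, 910 windows were a hub in 1 list, 268 in 2 lists, 123 in 3 and 65 in all 4. The 65 recurring hubs were 0.678% of the 9594 windows used in every list. They lay on 18 chromosomes, with 10 of them on chromosome 13. Their loop numbers ranged around a median of 6 after progesterone (5 to 11), 9 in the knockout (5 to 19), 7 in vehicle 2 (5 to 14) and 6 in vehicle 3 (5 to 8). The knockout had the most loops at 36 of the 65, shared the highest number at 19 and was below another library at 10. Of the 369 partner windows, counted from the shortest set of each hub, 309 (83.7%) were matched within 1 window in the other 3 lists. This share covers the shortest sets only. The recurring hubs had 425 loops after progesterone, 578 in the knockout, 511 in vehicle 2 and 378 in vehicle 3, so the longer lists held further partners. The share of matches expected at random was not computed. Without vehicle 3 the number of hubs common to the remaining 3 lists was 167, so the shortest list set the number 65.

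The recurring hubs with the highest smallest loop number were led by a window on chromosome 7 with no protein-coding gene (chr7:69475001-69500000). It had 8 loops after progesterone, 13 in the knockout, 10 in vehicle 2 and 8 in vehicle 3, and the nearest protein-coding gene, Arrdc4, was 726 kb away. One partner in every list was the window of Nr2f2, the gene of the nuclear receptor COUP-TFII that stromal cells of the uterus need for decidualisation, 865 to 875 kb away. The Nr2f2 window (chr7:70350001-70375000) was itself a recurring hub, with 5 loops after progesterone, 16 in the knockout, 12 in vehicle 2 and 5 in vehicle 3. The progesterone library and vehicle 3 were equal there, and below both longer lists.

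The hub of Zfp503 (chr14:21975001-22000000), which encodes a zinc finger corepressor, was the only window among the 10 busiest of each library. It had 11 loops after progesterone, 13 in the knockout, 13 in vehicle 2 and 8 in vehicle 3. None of its partners held a protein-coding gene start or end in any list. The Cxcl12 hub (chr6:117150001-117175000), at the gene of a chemokine made by stromal cells, had 7 loops after progesterone, 10 in the knockout, 10 in vehicle 2 and 8 in vehicle 3. Progesterone was lowest at Cxcl12, by 1 loop.

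Myc, which encodes a transcription factor that drives cell growth and responds early to estrogen in uterus, reached the highest loop number of any hub (chr15:61975001-62000000). It had 10 loops after progesterone, 19 in the knockout, 14 in vehicle 2 and 6 in vehicle 3. In each list 1 partner lay at lower coordinates, 825 or 830 kb away, and the other 9, 18, 13 and 5 lay at higher coordinates, up to 1670, 1740, 1670 and 1760 kb away. No partner window held a protein-coding gene start or end, and Myc was the only protein-coding gene counted within 500 kb. Partners at 50, 1175, 1360 and 1670 kb appeared in all 4 lists.

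Jun (chr4:95050001-95075000) had 8 loops after progesterone, 10 in the knockout, 10 in vehicle 2 and 5 in vehicle 3. All partners lay at higher coordinates except 1 in the knockout, at 45 kb on the other side. Partners 110, 220 and 265 kb away recurred in every list. Klf6 (chr13:5850001-5875000) had 8 loops after progesterone, 10 in the knockout, 6 in vehicle 2 and 6 in vehicle 3, with partners on both sides. Jun, Klf6 and Myc were the genes of the early estrogen response list whose hubs recurred in all 4 lists, the one without ERα included.

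Wnt5a (chr14:28500001-28525000), the gene of a secreted Wnt ligand of the uterine mesenchyme, had 9 loops after progesterone, 12 in the knockout, 12 in vehicle 2 and 6 in vehicle 3. Meis1 (chr11:18875001-18900000), a homeobox cofactor of Hox proteins, had 8, 9, 13 and 7 in the same order. The partners of Wnt5a lay on both sides in every list. Those of this Meis1 window did so except in the knockout, where all 9 were at higher coordinates. The other end of Meis1 lies in chr11:19000001-19025000, which had 2 loops after progesterone, 8 in the knockout, 8 in vehicle 2 and 5 in vehicle 3. Maf (chr8:115700001-115725000), which encodes a basic leucine zipper factor, had 9 loops after progesterone, 13 in the knockout, 13 in vehicle 2 and 5 in vehicle 3.

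**Figure D2:**
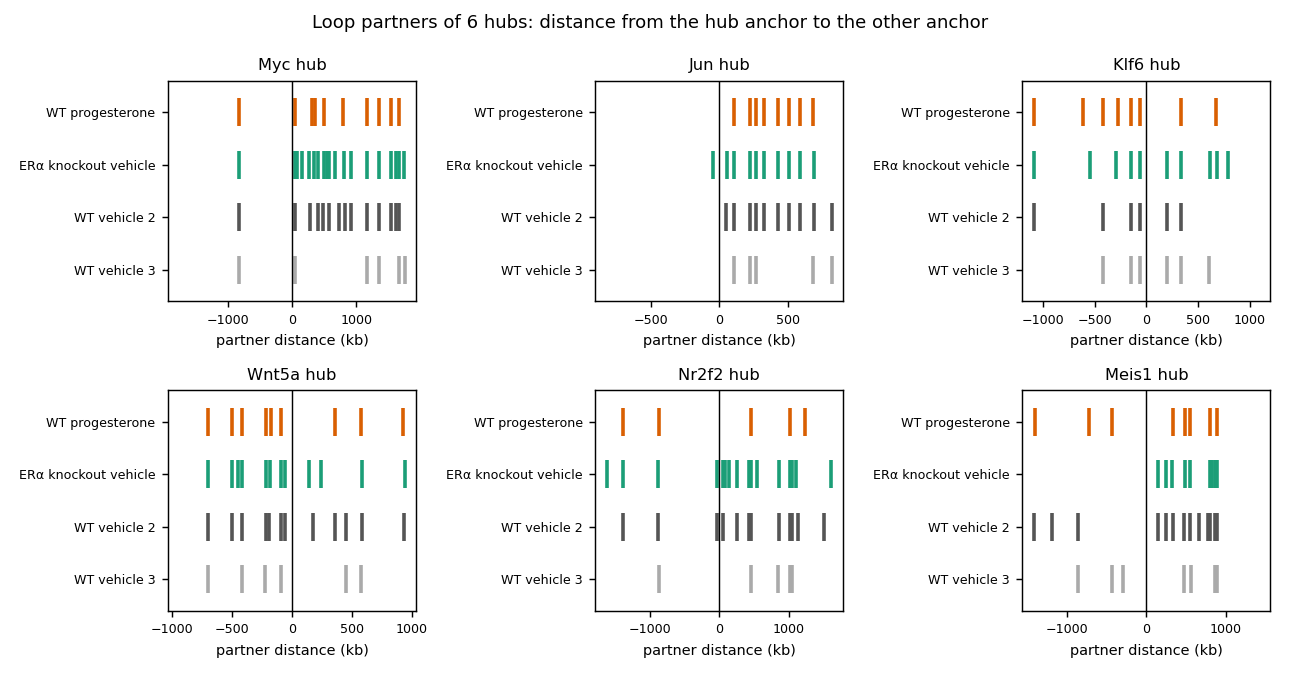
Loop partners of 6 recurring hubs in each library: each tick is 1 loop, placed by the distance in kb from the hub anchor to the partner anchor (horizontal axis; negative is toward lower coordinates), with 1 row per library. Myc and Jun loop almost wholly to higher coordinates in every row, whereas Klf6, Wnt5a and Nr2f2 have partners on both sides.

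Genes of progesterone response and decidualisation also recurred. Foxo1 (chr3:52250001-52275000), a forkhead factor of decidual cells, had 7 loops after progesterone, 10 in the knockout, 9 in vehicle 2 and 6 in vehicle 3, all to higher coordinates. The partners 720 to 725 kb and 745 to 750 kb away were windows of Cog6, which encodes a Golgi tethering subunit. Snai2 (chr16:14700001-14725000), a zinc finger repressor gene, had 5, 10, 10 and 6 loops in the same order, again all to higher coordinates. Outside that gene list, a recurring hub lay at Igfbp1 and Igfbp3 (chr11:7200001-7225000), which encode insulin-like growth factor binding proteins. It had 6 loops after progesterone, 9 in the knockout, 7 in vehicle 2 and 7 in vehicle 3, all to higher coordinates. The promoter found in this window was that of Igfbp3.

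The Hoxa9 to Hoxa11 hub (chr6:52225001-52250000) had 5 loops after progesterone, 8 in the knockout, 6 in vehicle 2 and 5 in vehicle 3. All lay at lower coordinates, 350 kb or more away, except 1 in the knockout that reached Mindy4 2975 kb away on the other side. Other recurring hubs to 1 side were those of Plpp3 (a lipid phosphate phosphatase gene), Kctd12 (a subunit of GABA-B receptor complexes), Bcl6 (a transcriptional repressor gene) and Ptger4 (a prostaglandin E2 receptor gene). Plpp3 had 8 loops after progesterone, 11 in the knockout, 9 in vehicle 2 and 7 in vehicle 3, and Kctd12 had 8, 11, 10 and 7. Adamts1 (chr16:85800001-85825000) had 7, 10, 9 and 7 loops, and its 7 partner windows of the shortest set were matched in every list.

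**Figure D3:**
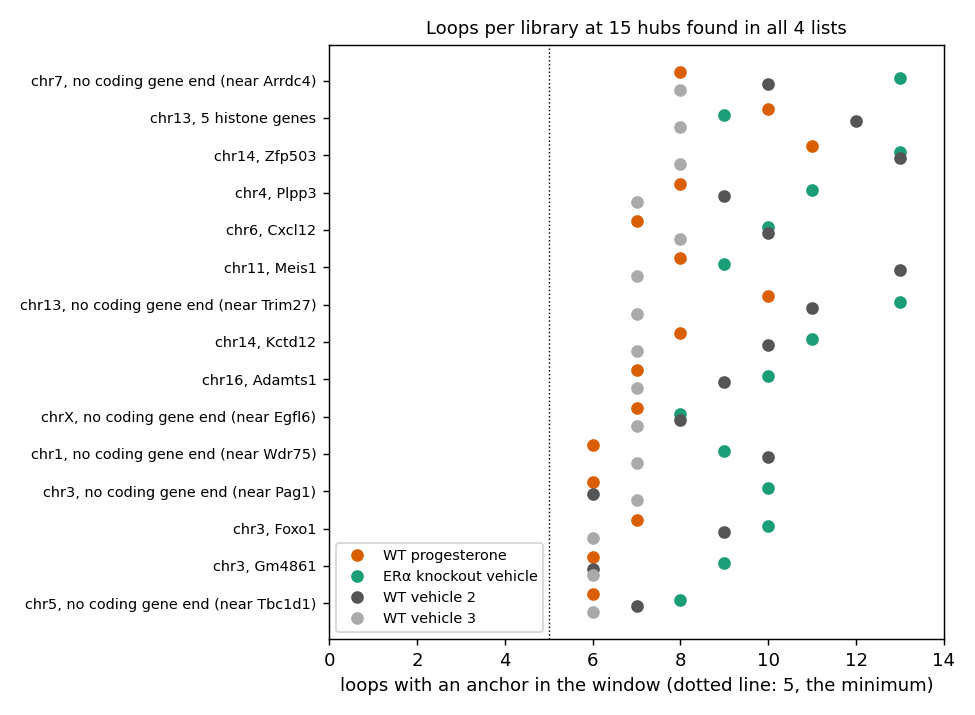
Loops per library at the 15 recurring hubs with the highest smallest loop number (horizontal axis, loops with an anchor in the window; rows, hubs with their chromosome and gene, or the nearest protein-coding gene). The dotted line is the minimum of 5 loops that defines a hub, and no point lies left of 6.

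Looping from a hub was often to 1 side only. All partners were on 1 side at 93 of the 223 progesterone hubs (41.7%, interval 35.2 to 48.5), 343 of the 1183 knockout hubs (29.0%, 26.4 to 31.7), 220 of the 569 hubs of vehicle 2 (38.7%, 34.6 to 42.8) and 42 of the 100 hubs of vehicle 3 (42.0%, 32.2 to 52.3). The directions were about even, with 45, 161, 107 and 21 to lower and 48, 182, 113 and 21 to higher coordinates. Windows with 2 loops were one-sided in 79.7%, 68.9%, 75.4% and 81.5% of cases, those with 4 in 50.3%, 40.6%, 48.1% and 48.8%, and those with 5 in 40.8%, 33.7%, 42.9% and 46.2%. The share fell with each added loop up to 5 loops in all 4 libraries. At 2 to 4 loops the knockout was lowest, and its interval did not overlap those of the other libraries, except at 4 loops, where it overlapped that of vehicle 3 (38.0 to 43.2 in the knockout, 42.5 to 55.2 in vehicle 3). Vehicle 2, the next longest list, was next lowest at each of these loop numbers. The knockout is 1 library with the longest list, so genotype and list length cannot be told apart in these shares.

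**Figure D4:**
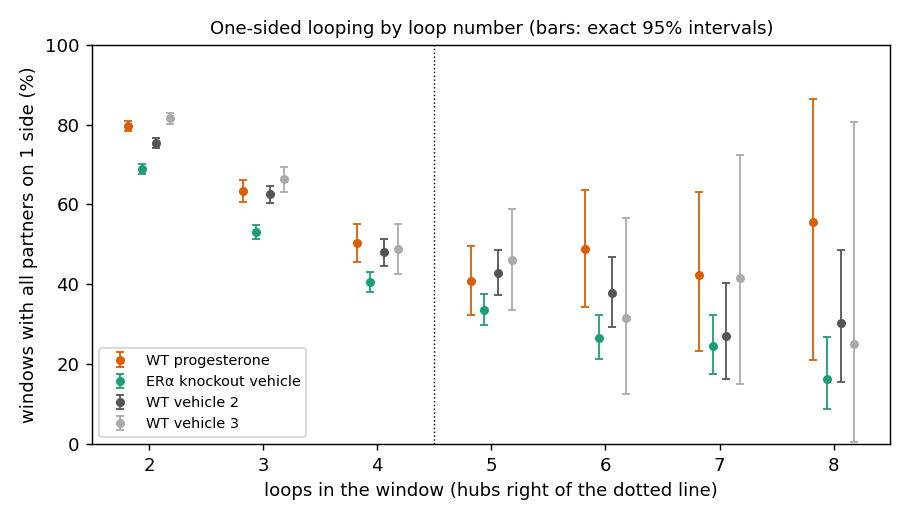
Share of windows whose partners all lie on 1 side (vertical axis, %), by the number of loops in the window (horizontal axis), for each library with exact 95% intervals; hubs stand right of the dotted line. The points fall between 68.9% and 81.5% at 2 loops and between 33.7% and 46.2% at 5 loops, with the knockout lowest at both.

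The side was stable between libraries. Of the 65 recurring hubs, 22 were one-sided in all 4 lists, 9 toward lower and 13 toward higher coordinates, and 0 changed side. A further 34 were two-sided in all 4 and 9 differed between lists. A gene start or end was in 12 of the 22 and 17 of the 34. Where a one-sided hub held a single gene start with known strand, the partners lay upstream of it at 9 and downstream at 16 hubs after progesterone, 34 and 51 in the knockout, 17 and 31 in vehicle 2, and 6 and 8 in vehicle 3. The hubs of the lists overlap, and the interval of the upstream share reached over 50% in every library (to 57.5%, 51.2%, 50.5% and 71.1%).

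Whether hubs held genes more often than other windows depended on the genes counted and on the windows compared. A protein-coding gene had its start or end in 49.8% of progesterone hubs, 54.2% of knockout hubs, 47.5% of vehicle 2 hubs and 49.0% of vehicle 3 hubs. In windows with 2 to 4 loops the shares were 47.1%, 52.6%, 49.8% and 46.5%, and in windows with 1 loop 47.3%, 42.7%, 45.1% and 47.8%. In the knockout the hub interval (51.3 to 57.1) lay above that of 1-loop windows (41.8 to 43.6), and in the other 3 libraries the intervals of these classes overlapped. With all RefSeq genes, non-coding ones included, the hub shares were 72.6% after progesterone (66.3 to 78.4), 72.7% in the knockout (70.1 to 75.2), 69.2% in vehicle 2 (65.3 to 73.0) and 71.0% in vehicle 3 (61.1 to 79.6). Those of 1-loop windows were 64.0% (63.0 to 65.0), 60.1% (59.2 to 61.0), 61.8% (60.8 to 62.8) and 64.9% (63.9 to 65.9). By this count the hub interval lay above that of 1-loop windows in every library except vehicle 3. Windows with 2 to 4 loops had 66.0% (64.7 to 67.2), 68.7% (67.8 to 69.6), 67.8% (66.7 to 68.8) and 66.2% (64.8 to 67.7). The hub interval lay above theirs in the knockout only.

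The far ends of hub loops were poor in protein-coding gene starts and ends. A partner window wholly inside a gene body was counted as holding none. The partner window of a hub held a gene start or end in 27.6% of cases after progesterone (25.2 to 30.2), 39.9% in the knockout (38.8 to 41.0), 32.4% in vehicle 2 (30.8 to 34.0) and 27.4% in vehicle 3 (23.7 to 31.3). Partners of windows with 2 to 4 loops held one in 45.7%, 52.4%, 48.6% and 44.7% of cases, and partners of 1-loop windows in 52.1%, 53.7%, 52.8% and 51.0%. In each library the interval for hubs lay below those of the other classes. The surroundings were also sparse: the median number of protein-coding genes within 500 kb was 5 for progesterone hubs, 7 for knockout hubs, 6 for vehicle 2 and 5 for vehicle 3, against 9 or 10 for 1-loop windows. Loops of hubs were longer than the others, and how much of the difference in partner genes goes with length was not tested.

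**Figure D5:**
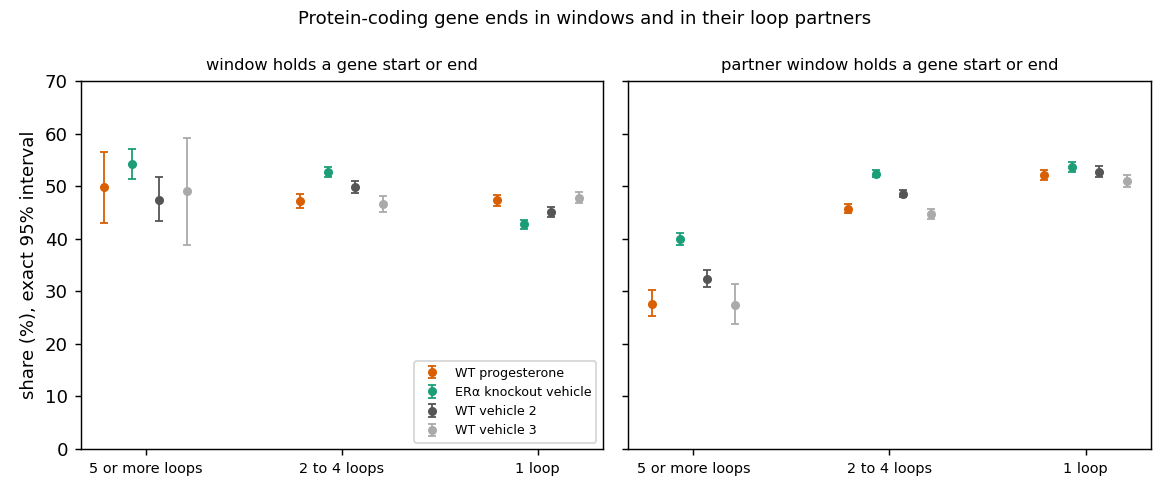
Share of windows that hold a protein-coding gene start or end (left panel, %) and share of their loop partners that do (right panel, %), for windows with 5 or more, 2 to 4 and 1 loop in each library, with exact 95% intervals. The window shares lie between 42.7% and 54.2%, while the partner shares lie between 27.4% and 39.9% for hubs and between 51.0% and 53.7% for 1-loop windows.

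Of the 65 recurring hubs, 36 (55.4%, 42.5 to 67.7) held a protein-coding gene start or end: 28 held 1 gene, 3 held 2 and 5 held 3 or more. The other 29 held neither outer end of one, although 15 of them held another RefSeq gene, such as a non-coding RNA or tRNA gene. One of the 29 (chr10:44450001-44475000) lay inside Prdm1, the gene of a transcriptional repressor, and held an inner start site of it, whose promoter is among the 43 above. This hub had 5 loops after progesterone, 6 in the knockout, 5 in vehicle 2 and 5 in vehicle 3. Their nearest protein-coding gene was a median of 30.7 kb away. For 9 of the 29 the window lay inside a gene body, and for 8 it was over 100 kb from any protein-coding gene. Another hub within a gene body, chr13:29825001-29850000 inside Cdkal1, a tRNA-modifying enzyme gene, had 7 loops after progesterone, 6 in the knockout, 7 in vehicle 2 and 7 in vehicle 3, all to lower coordinates and as far as 4270 to 4275 kb.

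A stretch of 2600 kb on chromosome 13 (chr13:21150001-23750000) held 6 of the recurring hubs, and they were joined to each other. This is the major histone gene cluster of the mouse, where replication-dependent core and linker histone genes lie among many tRNA genes. Between these 6 hubs there were 11 loops after progesterone, 9 in the knockout, 11 in vehicle 2 and 10 in vehicle 3, so the number was nearly even although the lists differ in length. The 6 windows held 0, 4, 5, 0, 3 and 3 histone genes from lower to higher coordinates, and 9, 2, 3, 12, 0 and 0 tRNA genes. Both windows without histone genes thus held the most tRNA genes. The window with H2ac11, H2ac12, H2bc11, H2bc12 and H4c9 (chr13:22025001-22050000) had 10 loops after progesterone, 9 in the knockout, 12 in vehicle 2 and 8 in vehicle 3. Histone genes have near-identical copies, and whether reads shared between copies contribute to these loops was not tested.

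Hubs joined by loops formed wider groups. After progesterone 102 hubs were joined to another hub and 121 were not, in the knockout 794 and 389, in vehicle 2 314 and 255, and in vehicle 3 30 and 70. Groups of 3 or more hubs numbered 16, 127, 47 and 3. The histone cluster was the first or joint first by size after progesterone (6 hubs), in vehicle 2 (12) and in vehicle 3 (6), and had 12 hubs in the knockout. The largest group of the knockout spanned 2325 kb around Meis1 with 15 hubs, where the progesterone list had a group of 4. A group around Nr2f2 had 5 hubs after progesterone, 14 in the knockout (over 3525 kb) and 3 in vehicle 3. A group around Hoxa9 to Hoxa11 had 4 hubs after progesterone and 3 in vehicle 3. The 8 largest groups of vehicle 2 held neither Meis1 nor Nr2f2, but a group of 6 with Hoxa13. Only the 8 largest groups of each list were described, so this does not show that vehicle 2 lacked groups at these genes. Its Nr2f2 hub was joined to the recurring hub 875 kb away. Group sizes were not compared at equal list length.

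Hubs touched the ends of 151 protein-coding genes after progesterone (0.690% of 21896), 931 in the knockout (4.25%), 366 in vehicle 2 (1.67%) and 67 in vehicle 3 (0.306%), and recurring hubs touched 53 (0.242%). These shares are the background for the gene lists below, which were counted with no test. Genes of Müllerian and uterine patterning were in hubs for 9 of 33 after progesterone, 17 in the knockout, 16 in vehicle 2 and 6 in vehicle 3. Some of them share a window, and these genes lay in 7, 15, 13 and 5 hub windows. Of all 39 Hox genes, which overlap this list, 4 were in hubs after progesterone, 12 in the knockout, 12 in vehicle 2 and 4 in vehicle 3, in 2, 5, 5 and 2 windows. Of the 38 early estrogen response genes, 7, 14, 10 and 4 were in hubs, and of the 30 genes of progesterone response and decidualisation, 6, 10, 8 and 5. For these lists the shares, between 10.3% and 51.5%, were above the background of their library in all 4 lists. The gene lists were chosen with earlier results of these data known, so these shares are a description only.

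Among early estrogen response genes outside the recurring hubs, Id2, an inhibitor of basic helix-loop-helix factors, had 7 loops after progesterone, 14 in the knockout, 7 in vehicle 2 and 3 in vehicle 3. Gadd45g, a stress-response gene, had 7 in each of these except 3 in vehicle 3. Sox4, an SRY-related factor gene, had 3 after progesterone, 12 in the knockout, 7 in vehicle 2 and 3 in vehicle 3. Vehicle 3, the shortest list, was lowest or joint lowest at all 3 genes. Igf1, the gene of a growth factor induced by estrogen in uterine stroma, had 2, 6, 5 and 2 loops, and Greb1, an ERα target, had 3, 4, 5 and 3.

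Among decidualisation genes, Hand2, a stromal factor induced by progesterone, had 2 loops after progesterone, 7 in the knockout, 2 in vehicle 2 and 0 in vehicle 3. Bmp2, a decidual growth factor gene, had 2, 5, 4 and 1. Both were hubs in the knockout only, which has the longest list. Emx2, a homeobox gene of the developing uterus, had 4 loops after progesterone, 6 in the knockout, 5 in vehicle 2 and 2 in vehicle 3. Osr1 had 5, 6, 5 and 2, and Tbx2 had 5, 8, 5 and 3; both encode transcription factors of the urogenital tract.

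Steroid receptors and coregulators were in hubs for 0 of 22 genes after progesterone, 3 in the knockout (Gata2, Ncoa2 and Nrip1), 0 in vehicle 2 and 0 in vehicle 3. In the stroma list Col3a1, a fibrillar collagen gene, and Pdgfra, a growth factor receptor of mesenchyme, were in hubs after progesterone, in the knockout and in vehicle 2, together with Twist1 in vehicle 2, and 0 of 14 were in vehicle 3. Smooth muscle genes were in hubs for 0, 2 (Acta2 and Myocd), 0 and 0 of 13. Markers of epithelium (16 genes), endothelium (11) and immune cells (13) were in no hub of any list, although 4, 7, 7 and 5 of the epithelial markers lay in a window with a loop. The background shares run from 0.306% to 4.25%, and at these shares lists so short would hold few or no hub genes. No contrast between cell types can be read from them. Of genes of other tissues, 1 of 19 hepatocyte genes (Apob) was in a hub in the knockout and in vehicle 2, and 1 of 20 neuronal genes (Camk2a) in the knockout.

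Large gene families were counted against the same background. Ribosomal protein genes were in hubs for 1 of 83 after progesterone, 8 in the knockout, 1 in vehicle 2 and 0 in vehicle 3, proteasome genes for 0, 4, 0 and 0 of 39, and genes of mitochondrial complex I for 0, 2, 0 and 0 of 37. Zinc finger genes named Zfp were in hubs for 6 of 367 after progesterone, 33 in the knockout, 8 in vehicle 2 and 2 in vehicle 3. In the knockout these were 9.64%, 10.3%, 5.41% and 8.99% of the families, against the 4.25% background, with complex I genes the nearest to it. In the other lists the single ribosomal protein gene, Rpl7, was 1.2% of its family, above the progesterone background of 0.690% and below the 1.67% of vehicle 2. The Zfp genes were 1.63% after progesterone, 2.18% in vehicle 2 and 0.545% in vehicle 3, against backgrounds of 0.690%, 1.67% and 0.306%. In vehicle 2 and vehicle 3 these were only 8 and 2 genes, near the background. Olfactory receptor genes were in hubs for 1, 3, 1 and 1 of 1106, or at most 0.271%, below the background of every library, and the 1 that recurred, Olfr1359, shares its window with histone genes. Krüppel-like genes had 2, 4, 3 and 2 of 17, with Klf3 and Klf6 in all 4 lists.

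After progesterone, hubs differed from those of both vehicle lists by small numbers of loops. Of the 89 hubs shared by both vehicle lists, 22 (24.7%, 16.2 to 35.0) were not hubs after progesterone. They made up 0.102% of the 21470 windows used in any of these 3 lists. All 22 still had 2 or more loops after progesterone, and 14 had 4, just under the threshold. The same count with a vehicle library in the place of progesterone gave 4 of 71 (5.63%) lacking in vehicle 2 and 108 of 175 (61.7%) lacking in vehicle 3, so the value after progesterone lay between those of the vehicle libraries, as did its list length.

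The largest gap was at the second Meis1 hub (chr11:19000001-19025000), with 2 loops after progesterone, against 8 in vehicle 2 and 5 in vehicle 3. The knockout had 8. The adjoining window, chr11:19025001-19050000, had 9 loops after progesterone, 11 in the knockout, 7 in vehicle 2 and 4 in vehicle 3, so 25 kb further on progesterone was the highest of the wild-type lists. Fosl2 (chr5:32125001-32150000), an AP-1 subunit gene, had 4 loops after progesterone, against 7 in vehicle 2 and 6 in vehicle 3. Gpa33, an epithelial surface antigen gene, had 3 after progesterone, against 5 in vehicle 2 and 5 in vehicle 3, and it had 4 in the knockout. With shifted window borders the 22 became 10, and without vehicle 3 they became 394.

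In the other direction, 44 of the 223 progesterone hubs (19.7%) were hubs in neither vehicle list, 0.205% of the same 21470 windows. With a vehicle library in the place of progesterone, this count was 372 of 569 (65.4%) for vehicle 2 and 7 of 100 (7%) for vehicle 3. The share after progesterone again lay between them, as did its list length. At 34 of the 44 hubs the higher vehicle number was 4 loops, at 9 it was 3, and at 1 it was 2. A window inside Nfia (chr4:97750001-97775000), a nuclear factor gene, had 7 loops after progesterone, against 3 in vehicle 2 and 2 in vehicle 3; the knockout had 7 as well. A window inside Mbnl1, a splicing regulator gene, had 7 after progesterone, against 4 in vehicle 2 and 3 in vehicle 3. The window of Chmp2a, Mzf1, Trim28 and Ube2m (chr7:13025001-13050000) had 5, against 2 and 1. Trim28 encodes a corepressor that works with KRAB zinc finger proteins. With 1 progesterone library these differences have no replicate check, and without vehicle 2 the 44 became 152.

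The knockout lacked few of the hubs shared by both vehicle lists. Of the 89 hubs shared by the vehicle lists, 7 (7.87%, 3.22 to 15.5) were not hubs in the knockout, 0.0274% of the 25593 windows used in these 3 lists, and 6 of the 7 had 4 loops there. Slc28a1, a nucleoside transporter gene, had 3 loops in the knockout, against 5 in vehicle 2 and 5 in vehicle 3. The same count for vehicle 2 gave 6 of 88 (6.82%) and for vehicle 3 328 of 410 (80%). The interval for the knockout held the value of vehicle 2. Of all 569 vehicle 2 hubs, 1 had 0 loops in the knockout, although that list is the longest. This window, at the gene of miR-5620 (chr7:7275001-7300000), had 5 loops in vehicle 2, 4 after progesterone and 3 in vehicle 3. Why the knockout list had none there was not tested. The 7 became 12 without vehicle 2 and 159 without vehicle 3.

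In contrast, 767 of the 1183 knockout hubs (64.8%, 62.0 to 67.6) were hubs in neither vehicle list, 3.0% of the 25593 windows. For vehicle 2 against progesterone and vehicle 3, where the longest list again stands against shorter ones, it was 372 of 569 (65.4%, 61.3 to 69.3), and the intervals overlapped. The higher vehicle number was 4 at 263 of the 767 hubs, 3 at 238, 2 at 180, 1 at 74 and 0 at 12. At 380 the knockout was ahead by 3 loops or more. The knockout list is 1 library and the longest, so genotype and list length cannot be told apart here.

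The largest gap was in the Zfp503 region. A window inside Lrmda (chr14:22675001-22700000), a gene linked to melanocyte differentiation, had 12 loops in the knockout, against 1 in vehicle 2 and 1 in vehicle 3; progesterone had 2. Of its 12 partners 9 were themselves knockout hubs, among them the Zfp503 window 700 kb away. The hubs joined around Zfp503 numbered 13 in the knockout and 6 after progesterone, against 8 in vehicle 2 and 2 in vehicle 3.

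Next came the window of Fbxo5 and Mtrf1l (chr10:5800001-5825000), which lies 794 kb beyond the end of Esr1, the gene disrupted in this knockout. It had 9 loops in the knockout and 0 in the progesterone list, vehicle 2 and vehicle 3. The partners lay 1425 kb toward lower to 23550 kb toward higher coordinates, a median of 2150 kb away, and 8 of 9 held a gene, among them Zbtb2, Cnksr3, Tab2, Stxbp5, Shprh and Rnf146. Fbxo5 encodes an inhibitor of the anaphase-promoting complex and Mtrf1l a mitochondrial release factor.

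On chromosome 17, windows at chr17:82425001-82450000 and chr17:82500001-82525000 each had 10 loops in the knockout. The first had 2 in vehicle 2 and 1 in vehicle 3, and the second 2 and 0. No protein-coding gene lay within 500 kb of either, and none of their partners held the start or end of one. Of these partners, 8 of 10 and 8 of 10 were knockout hubs. They lay within a group of 9 hubs that spanned 1700 kb and held no protein-coding gene start or end. In all, 8 knockout hubs had 0 loops in every wild-type list, including those of Eml6 (7 loops in the knockout), of Chchd7 and Plag1 (6) and of Hnrnph3, Pbld2 and Rufy2 (6), and 68 had at most 1 in each. The Chchd7 and Plag1 window also looped to genes at all 6 of its partners, the farthest 12225 kb away at Ripk2.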

How the data were processed

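Per the labels' protocols, uterus was processed with the Arima Hi-C kit. The authors deposited 1 list of loops per library, with 6 columns of positions (chromosome, start and end of both anchors, 5, 10 or 25 kb wide) and no scores or contact counts. Positions are in bases on mm10, and Juicer 1.5.6 was used, per the submitters' processing notes; the sources used here do not name the program or thresholds that called the loops. Groups came from the labels.

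Each anchor was placed by its midpoint in a 25 kb window, and a window with 5 or more loops was a hub. The hubs and the 27 gene lists were chosen with earlier results of these data known. Genes (21896 protein-coding symbols) were taken from RefSeq (GRCm38.p6, whose chromosomes are those of mm10), and 2 list entries had no match. A gene was placed in a window that held its outermost start or end. A hub was one-sided when all partners lay at higher, or all at lower, coordinates. Hubs expected at the length of the shortest list were computed exactly (hypergeometric), with loops drawn without replacement. The 95% intervals of shares are exact binomial ones (Clopper-Pearson) and cover counting error only. No test was made, since progesterone and the knockout have 1 library each.

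Hubs named were the 10 busiest of each library, the 15 recurring hubs with the highest smallest loop number, the 5 largest gaps in each direction of each comparison, and list genes in recurring hubs; others were chosen after their values were seen. Ties went by chromosome and start. The hub count, tested on simulated data, recovered 200 of 200 planted hubs. Each planted window held more loops than the threshold, so this checks the counting only, and false hubs were not counted. Other thresholds, windows and gene rules were tried, and the closing section gives their effect. The tools were pandas 2.3.3, networkx 3.6.1, numpy 2.4.6, scipy 1.17.1 and matplotlib 3.10.9 under Python 3.11.15.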

Additional observations from a re-analysis of the deposited data

How the results depend on the processing

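Of 96 values recomputed for 17 results under 12 other settings, 43 stayed within 1.5 times the reported count or within the reported interval, and 53 moved. With 4 or more loops the hubs numbered 656 after progesterone, 2603 in the knockout, 1420 in vehicle 2 and 352 in vehicle 3, and with 6 or more 93, 571, 250 and 35. Without loops that have 25 kb anchors they were 127 after progesterone, 376 in vehicle 2 and 39 in vehicle 3. The expected numbers at the shortest length, 113.6, 100.1 and 107.2, stand in the report. Recurring hubs were 214, 31 and 30 under these 3 settings, and 67 to 167 when a vehicle library was left out. Vehicle hubs not found after progesterone were 79 and 3 with 4 or 6 loops, 10 with shifted windows, 5 without 25 kb anchors and 29 to 394 when a vehicle library was left out. Those found only after progesterone were 131 and 17 with 4 or 6 loops, 18 without 25 kb anchors and 48 to 152 when a vehicle library was left out. For the knockout the first count was 28 and 0 with 4 or 6 loops, 3 with shifted windows, 0 without 25 kb anchors and 12 to 159 when a vehicle library was left out, and the second 1549 and 379 with 4 or 6 loops (773 to 1095 when a vehicle library was left out). These counts thus moved with the threshold and with the vehicle lists used.

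The share of hubs with a gene was 72.6%, 72.7%, 69.2% and 71.0% with all RefSeq genes. In 1-loop windows it was 64.0%, 60.1%, 61.8% and 64.9%, and in windows with 2 to 4 loops 66.0%, 68.7%, 67.8% and 66.2%. With genes within 10 kb the hub share was 58.3%, 60.8%, 55.5% and 60.0%. With 6 or more loops it was 50.1% in the knockout and 60.0% in vehicle 3. The one-sided share was 66.4%, 55.0%, 64.3% and 73.0% when 80% of partners on 1 side sufficed. With 4 or more loops it was 35.3% in the knockout and 44.3% in vehicle 2, and with 6 or more 24.0% and 33.2%. Depth is unknown, so no limit from it can be given, and loop strength was not used here.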

Other observations

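Hubs also held microRNA genes, among them members of the miR-99, let-7 and miR-125 clusters, which are transcribed together. The sequences from RefSeq are shown with the seed, bases 2 to 8, in capitals, since the members on different chromosomes share it.
let-7c-5p: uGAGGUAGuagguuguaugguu
let-7e-5p: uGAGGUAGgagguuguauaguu
miR-99a-5p: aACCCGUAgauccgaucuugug
miR-99b-5p: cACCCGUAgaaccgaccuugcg
miR-125a-5p: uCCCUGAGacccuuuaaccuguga
miR-125b-5p: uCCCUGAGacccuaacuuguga

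The window of miR-99a and let-7c (chr16:77575001-77600000) had 2 loops in the progesterone list, 7 in the knockout, 4 in vehicle 2 and 0 in vehicle 3. The window of miR-99b, let-7e and miR-125a (chr17:17825001-17850000) had 2, 6, 4 and 1 loops in the same order, and the window of 1 copy of miR-125b (chr9:41575001-41600000) had 4, 6, 5 and 3. All 3 windows were hubs in the knockout, and the last was one in vehicle 2 too. The window of miR-141 and miR-200c (chr6:124700001-124725000), microRNAs of epithelial cells, had 1, 5, 2 and 0 loops, and that of miR-199a and miR-214 (chr1:162200001-162225000), microRNAs of mesenchyme, had 2, 5, 2 and 1. The knockout was highest at each of these 5 windows and also had the longest list, and genotype and list length cannot be told apart. These windows were picked after their values were seen.

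Among the busiest windows of single libraries outside the recurring hubs, Cdh11, the gene of a mesenchymal cadherin (chr8:102775001-102800000), had 5 loops after progesterone, 13 in the knockout, 8 in vehicle 2 and 4 in vehicle 3. Irs1, the gene of an insulin receptor substrate (chr1:82275001-82300000), had 7, 9, 11 and 4. Vehicle 3 was 1 loop short of a hub at both. At Cdh11 all partners lay at higher coordinates except 3 in the knockout, and at Irs1 most lay at lower coordinates in every list.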
